A study of Mus musculus with 6 samples.

Results

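Nlrc5, the transcriptional activator of MHC class I genes, was followed in mouse liver together with 9 genes that make and load class I molecules. The set was H2-K1, H2-D1, B2m, Tap1, Tap2, Tapbp, Psmb8, Psmb9 and Psmb10 besides Nlrc5, that is 10 of the 56674 rows of the count table, which names genes by symbol only. The members were chosen by name, with earlier results of the same diet comparison in view, so their differences between diets describe these libraries and are not given as tests. Each member had a single row, and all 10 were among the 18284 genes with enough counts to be tested.

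The study measured polyadenylated RNA by sequencing in liver of male C57BL/6 mice reared for 71 weeks. The control group of 3 libraries received normal chow, and the PP-MP group of 3 libraries received chow with polypropylene microplastic. The question, as the design text gives it, was how an extended exposure to these particles bears on gene expression in the liver. The titles and treatment fields name PP-MP or normal chow, while the treatment protocol of all 6 libraries names PS-MP, and the names from the titles are kept here. The particle size, the dose and how long the chow was fed are not stated in any source used here. The labels do not say that the 3 libraries of a group came from separate animals, so any p-value measures only the spread between these samples. No batch is named, and one that coincided with diet could not be told apart from it.

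MHC class I molecules show peptides from inside a cell to CD8 T cells and to natural killer cells. Peptides are cut by the proteasome, in which the interferon-induced subunits Psmb8, Psmb9 and Psmb10 can take the places of Psmb5, Psmb6 and Psmb7. They are then pumped into the endoplasmic reticulum by the Tap1 and Tap2 transporter and loaded with the help of tapasin, the product of Tapbp, onto a heavy chain such as H2-K1 or H2-D1 paired with beta-2-microglobulin, the product of B2m. Nlrc5 belongs to the NLR family and binds no DNA by itself. It acts through factors of the RFX, CREB/ATF and NF-Y families that sit on the SXY module, a run of short motifs shared by promoters of class I genes, and interferon-gamma is its best known inducer.

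The promoters are shown because Nlrc5 is known to act on this module. Windows of 300 bases, from 250 bases before the annotated start to 50 bases from it on, were found in the RefSeq table of build GRCm38.p6 for 8 of the 10 members, Nlrc5 and Tap2 being the others. This build is older than GRCm39, which the submitters name for the counts. H2-K1 had 2 windows, of which the first listed was used, so positions in H2-K1 depend on that start. The windows printed are those of H2-K1 (chr17:34000298-34000597, minus strand), H2-D1 (chr17:35262844-35263143, plus strand), B2m (chr2:122147437-122147736, plus strand) and Tap1 (chr17:34187306-34187605, plus strand), each 5′ to 3′ on its gene's strand. Capitals mark matches, on either strand, to the Y box core CCAAT, to the interferon-stimulated response element core GAANNGAAA, and to ACNGNTGACG, the end of the X1 box joined to the X2 box. The last motif was chosen after the sequences had been read.
H2-K1: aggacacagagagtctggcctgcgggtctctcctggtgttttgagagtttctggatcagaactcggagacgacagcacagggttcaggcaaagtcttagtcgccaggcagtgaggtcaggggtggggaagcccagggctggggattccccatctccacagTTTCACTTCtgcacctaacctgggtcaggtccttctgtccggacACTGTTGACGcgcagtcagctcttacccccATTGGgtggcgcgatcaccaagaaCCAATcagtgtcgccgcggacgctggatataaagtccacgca
H2-D1: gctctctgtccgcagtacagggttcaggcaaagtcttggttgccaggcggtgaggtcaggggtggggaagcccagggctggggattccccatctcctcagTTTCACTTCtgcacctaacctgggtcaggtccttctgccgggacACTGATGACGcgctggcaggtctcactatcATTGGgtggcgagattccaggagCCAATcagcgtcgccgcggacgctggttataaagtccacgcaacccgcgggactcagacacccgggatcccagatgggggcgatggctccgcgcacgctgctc
B2m: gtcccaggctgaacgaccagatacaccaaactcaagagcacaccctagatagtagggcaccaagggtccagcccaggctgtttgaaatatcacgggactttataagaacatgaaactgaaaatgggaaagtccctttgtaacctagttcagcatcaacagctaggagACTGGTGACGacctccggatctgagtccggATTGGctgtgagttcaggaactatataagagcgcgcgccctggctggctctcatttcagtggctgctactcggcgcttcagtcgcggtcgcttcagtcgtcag
Tap1: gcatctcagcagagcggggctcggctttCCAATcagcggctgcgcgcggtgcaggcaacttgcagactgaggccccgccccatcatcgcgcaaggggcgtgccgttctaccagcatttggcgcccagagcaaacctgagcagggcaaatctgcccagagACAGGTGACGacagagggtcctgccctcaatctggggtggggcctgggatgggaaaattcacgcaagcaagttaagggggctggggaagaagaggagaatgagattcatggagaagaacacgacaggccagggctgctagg

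In H2-K1 the joined X box read ACTGTTGACG and lay at positions -46 to -37, the annotated start being position 0. In H2-D1 it read ACTGATGACG, at -106 to -97. In B2m it read ACTGGTGACG, at -83 to -74. In Tap1 it read ACAGGTGACG, at -91 to -82. No pair of these 4 sites had the same letters at both free positions of the motif. The Psmb9 window runs the other way from Tap1 and shares 275 bases with it, so the match in Psmb9 is the same site. ACNGNTGACG was found in these 5 members' windows and in 0.384% of the 32851 windows of the table. The Y box core CCAAT was found in 6 members' windows and in 37.4% of all windows, read in some as its reverse complement ATTGG. In H2-K1, H2-D1 and B2m alike, the first ATTGG after the joined X box began 30 bases after the first base of that box. In Tap1 CCAAT lay on the 5′ side of it.

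Some other motifs were searched on both strands. TGACG, which lies inside ACNGNTGACG, was in 5 members' windows and in 20.8% of all windows. The longer X box core AGNNACNGNTG, which overlaps it, was in the windows of Tap1, Psmb9 and Psmb10 and in 4.61% of all. GAANNGAAA was in those of H2-K1 and H2-D1, read there as TTTCACTTC, and in 7.52% of all. The B2m window holds gaaactgaaa, in which the gap between GAA and GAAA is longer, and the pattern cannot match it. A window without a match may therefore still hold a form of this element. The kappa-B core GGANNNTCC was in that of B2m and in 8.62% of all. A match describes letters in the window and is not shown to be a bound site.

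Totals per library were 68357478 to 112566641 counts. Values below are normalised read counts (CPM), that is counts scaled to library size and by the trimmed mean of M-values (TMM), and a difference between diets is the log2 fold change of PP-MP over control fitted by edgeR, with its standard error (SE). A poly(A) selection should largely remove ribosomal RNA. The share of counts on Rn18s-rs5, a row of ribosomal RNA-related sequence, was 2.92%, 11.2% and 1.15% in controls 1, 2 and 3, and 0.655% to 0.750% in the PP-MP libraries. Its part in the results was not tested. Hepatocyte markers were present as the tissue label gives, with a summed level of 62391 to 80095 CPM in the controls and 68836 to 82853 CPM in PP-MP libraries over 8 genes.

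Across the set, Nlrc5 was higher and the other 9 members were lower on the fitted scale in the PP-MP libraries, although 4 of the 9 were above 0 when scaled by library totals. Nlrc5 stood at 10.4 ± 1.25 CPM in the controls and 21.1 ± 2.11 CPM in PP-MP libraries (SD, n = 3 each). The fitted differences of the other 9 ran from -0.45 for H2-K1 to -0.06 for Tap2, with a median of -0.26. Over all 10 the median was -0.23, beside 0.03 over all genes tested. In this bulk tissue, fewer cells of a type and less RNA per cell cannot be told apart.

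**Figure D1:**
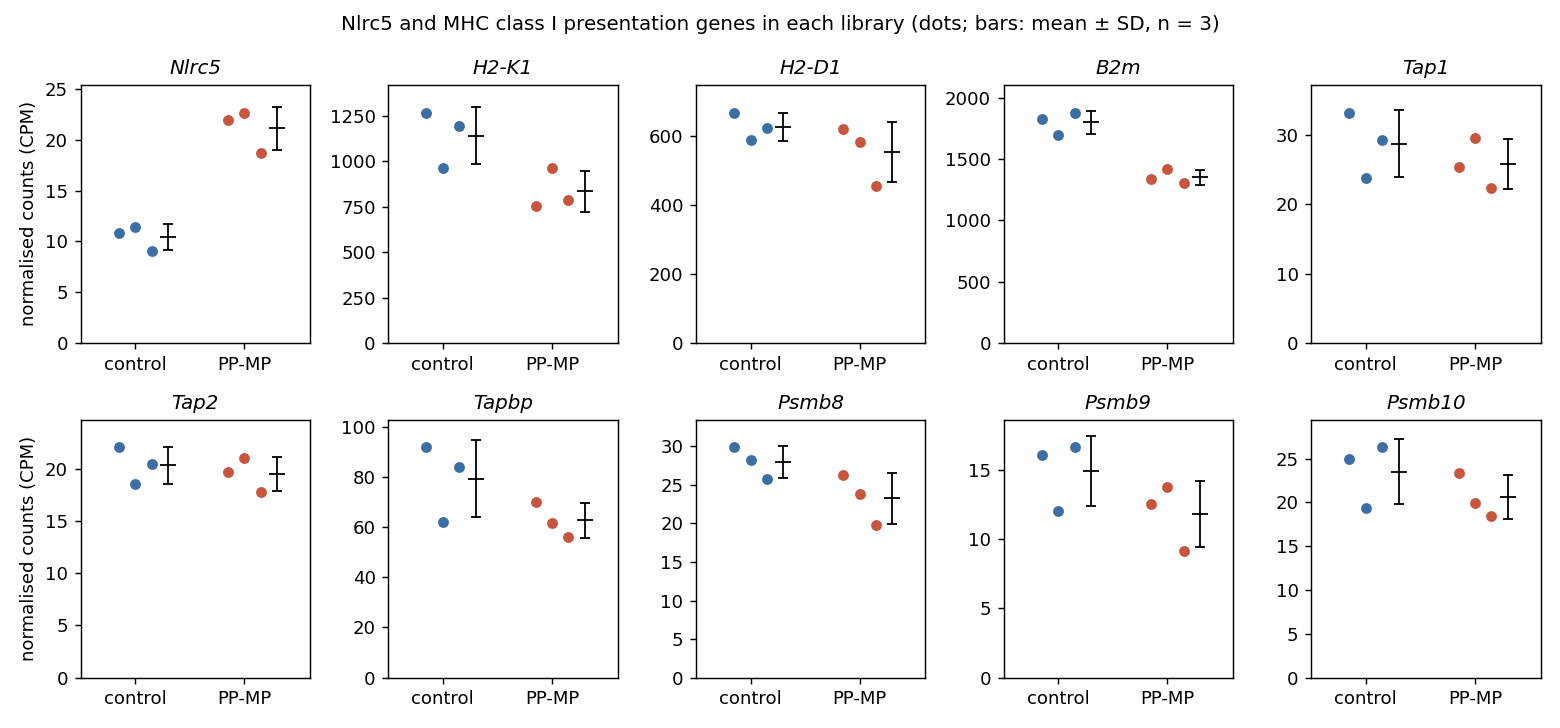
Normalised read counts (CPM, y axis from 0, a scale for each gene) of the 10 genes in each of the 3 control and 3 PP-MP libraries (dots), with the mean ± SD beside them. Nlrc5 is between 9.03 and 11.4 CPM in the controls and between 18.7 and 22.7 CPM in PP-MP libraries, while B2m and, by a narrow margin, H2-K1 are the only others whose groups are apart under this TMM scaling, with the PP-MP libraries below.

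The activator Nlrc5 had 10.8, 11.4 and 9.03 CPM in controls 1, 2 and 3, and 22.0, 22.7 and 18.7 CPM in PP-MP libraries 1, 2 and 3. Every PP-MP library was above every control library, and the third library was the lowest in each group. The ratio of the group means was 2.03 and the fitted difference was 1.02 (SE 0.16, 95% interval 0.65 to 1.39). The counts behind these values were 690 to 945 in the controls and 1939 to 2221 in PP-MP libraries.

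B2m, the invariant light chain of every class I molecule, had 1825, 1699 and 1880 CPM in the control libraries and 1335, 1417 and 1303 CPM in the PP-MP libraries. The groups did not overlap, and the fitted difference was -0.41 (SE 0.15, 95% interval -0.78 to -0.05). H2-K1, a classical heavy chain, had 1269, 965.03 and 1193 CPM against 753, 964.89 and 786 CPM. The lowest control library, control 2, and the highest PP-MP library, PP-MP 2, were nearly level, and the fitted difference was -0.45 (SE 0.19). When library totals replaced the TMM factors, the groups of B2m and H2-K1 overlapped.

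H2-D1, the other classical heavy chain, had 669, 588 and 625 CPM in the controls and 622, 584 and 455 CPM in PP-MP libraries. Here the groups overlapped, PP-MP 3 standing below the rest, and the fitted difference was -0.18 (SE 0.18). H2-K1 and H2-D1 resemble each other and the Q and T region heavy chains. Of the 50-base windows of the longest protein-coding transcript, 8.79% in H2-K1 and 14.3% in H2-D1 also occurred in transcripts of other genes, H2-D1 and H2-Q1 foremost. With 100-base windows the shares were 0% and 4.64%, so the counts of H2-D1 are the less certain of the pair. No 50-base window of Nlrc5, B2m, Psmb8, Psmb9 or Psmb10 was shared.

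The peptide transporter genes lay close to level. Tap1 had 33.2, 23.7 and 29.3 CPM in the controls and 25.4, 29.5 and 22.3 CPM in PP-MP libraries, and Tap2 had 22.0, 18.5 and 20.5 CPM against 19.7, 21.01 and 17.7 CPM. Both overlapped between diets, with fitted differences of -0.16 for Tap1 and -0.06 for Tap2. The SE was 0.14 to 0.21 for every member. Tapbp, the tapasin gene that bridges the transporter to the empty heavy chain, had 91.8, 62.1 and 84.1 CPM in the controls and 70.0, 61.9 and 56.2 CPM in PP-MP libraries. Its groups overlapped, control 2 standing below the other controls, and its fitted difference was -0.34.

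The inducible proteasome subunits also overlapped between diets. Psmb8 had 29.9, 28.2 and 25.7 CPM in the controls and 26.3, 23.8 and 19.7 CPM in PP-MP libraries, a fitted difference of -0.26. Psmb9, whose gene stands head to head with Tap1, had 16.1, 12.01 and 16.6 CPM against 12.5, 13.7 and 9.15 CPM, a fitted difference of -0.34. Psmb10 had 24.9, 19.3 and 26.3 CPM against 23.3, 19.9 and 18.5 CPM, a fitted difference of -0.19. In all 3 the lowest library was PP-MP 3.

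Some members share exonic bases with other annotated genes, and no source used here states the strand setting of the counting. Tap1 and Psmb9 share 212 bases on opposite strands. Tapbp shares 149 bases with Zbtb22 on its own strand and 904 bases with Gm19412 on the other, which had 11 to 29 counts per library. Tap2 shares bases with Gm20496 and Gm15821 and Psmb8 with Gm20496, all on the opposite strand and each with at most 28 counts in a library. The 9330175E14Rik transcript at the start of Nlrc5 is described further on.

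The edgeR quasi-likelihood test with Benjamini-Hochberg adjustment over all genes passed 0 of the 10 members, at a background of 0.0109% of genes tested in either direction. The smallest adjusted p of a member in that test was 0.18, for Nlrc5, and it ran from 0.075 to 0.46 over the alternatives other than DESeq2. The adjusted p by DESeq2 was 1.6e-05 for Nlrc5 and 0.039 for B2m. DESeq2 called 2 of the 10, where it called 4.25% of all genes, with Nlrc5 higher, as were 2.38% of genes, and B2m lower, as were 1.87%, and limma-voom called 0. At an unadjusted p under 0.05 in edgeR, 1 member was higher, where 8.05% of genes were, and 2 were lower, H2-K1 and B2m, where 5.81% were. The groups lay apart with PP-MP above for 1 member, where 12.2% of genes did so, and with PP-MP below for 2, where 9.79% did so. The fitted value was higher for 1 and lower for 9 of the 10, where it was higher for 52.6% and lower for 47.4% of all genes. Because the members were chosen with this contrast known, nothing is read from these counts.

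**Figure D2:**
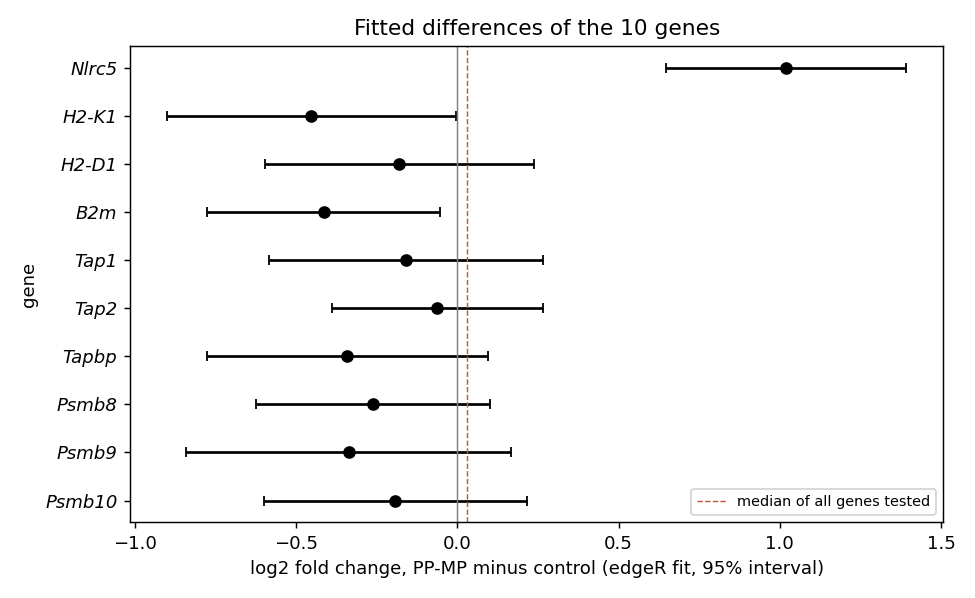
Fitted log2 fold change of PP-MP over control (x axis; dots, with 95% intervals as bars) for each of the 10 genes (y axis), with the median of all genes tested, 0.03, as a dashed line. Nlrc5 stands at 1.02 and the other 9 between -0.45 and -0.06, and among these the intervals of H2-K1 and B2m lie below 0, all with TMM scaling, while H2-D1, Tap1, Tap2 and Psmb10 are above 0 with library totals.

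The size of the small differences depended on the scaling. Scaling by library totals moved the median of all genes up by 0.23 on the log2 scale, and H2-D1, Tap1, Tap2 and Psmb10 then had values of 0.06, 0.07, 0.17 and 0.04, above 0, while the other 5 stayed below it. Relative to the median of all genes, the 9 members besides Nlrc5 were lower under both scalings, and Nlrc5 was higher by 0.991 with TMM and 0.997 with library totals. Tap2 was also just above 0, at 0.02, without control 1.

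The ratio of Nlrc5 to the other 9 members, taken within a library, does not depend on the scaling. It is the log2 ratio of Nlrc5 counts to the geometric mean of the counts of the other 9, and it was -3.25, -2.84 and -3.43 in the controls and -1.90, -1.88 and -1.88 in PP-MP libraries. The PP-MP libraries were all above the control libraries, by 1.29 between the means, and had an SD of 0.01 among themselves, beside 0.30 among the control libraries. The ratios of the inducible subunits to those they replace overlapped between diets. Psmb8 to Psmb5, the subunit it replaces, was -1.73, -1.32 and -2.05 in the controls and -1.09, -1.66 and -2.23 in PP-MP libraries, a difference of 0.04 between means. Psmb9 to Psmb6 differed by -0.14 and Psmb10 to Psmb7 by 0.14, each with overlapping libraries.

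**Figure D3:**
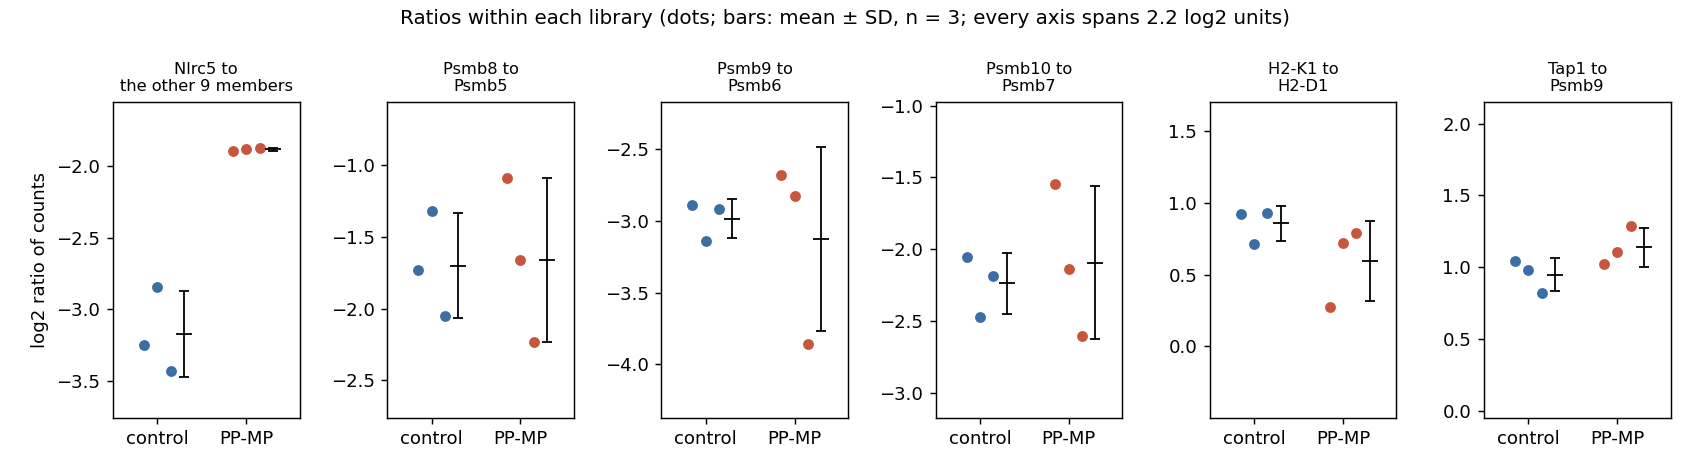
Log2 ratios of counts within each library (y axis, spanning the same number of log2 units in every panel) for 6 ratios among the class I genes and proteasome subunits, with 3 control and 3 PP-MP libraries as dots and the mean ± SD beside them. The ratio of Nlrc5 to the other 9 members is apart between diets, at a mean of -3.17 in the controls and -1.88 in PP-MP libraries, and the other 5 ratios overlap.

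The heavy chain ratio H2-K1 to H2-D1 was lower by 0.26 in PP-MP libraries, with overlap, PP-MP 1 at 0.28 standing below the other 5 at 0.71 to 0.93. The ratio of H2-K1 to its light chain B2m differed by -0.04 and that of H2-D1 to B2m by 0.22. Tap1 to Tap2, the subunits of one transporter, differed by -0.09, and Tap1 to Psmb9, which share a promoter region, by 0.19. All 4 overlapped between diets.

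Levels can be set against each other only per length. In CPM per kilobase of all annotated exons, averaged over the 6 libraries, B2m came first at 1833, followed by H2-K1 at 336, H2-D1 at 229, Tapbp at 19.6, Psmb10 at 12.9 and Psmb8 at 7.57. Tap2 at 5.26, Tap1 at 4.97, Psmb9 at 3.65 and Nlrc5 at 1.86 closed the order. The ranges of the libraries overlapped between H2-K1 and H2-D1, Tap2 and Tap1, Tap1 and Psmb9, and Psmb9 and Nlrc5, so these neighbours in the order do not differ beyond their spread over all libraries. Within a library, Tap2 was above Tap1 in 5 of 6 and the other 3 pairs kept their order in 6 of 6. Nlrc5 itself was at 1.23 ± 0.15 in the controls and 2.49 ± 0.25 in PP-MP libraries on this scale (SD, n = 3 each). With the longest transcript of any type as the length Tap1 came before Tap2, at 6.96 and 5.78, and the order was otherwise the same. The ranges then overlapped between Tapbp and Psmb10, Psmb10 and Psmb8, Tap1 and Tap2, and Tap2 and Psmb9. By comparison, Psmb5, Psmb6 and Psmb7, the constitutive subunits, were at 92.7, 58.9 and 29.1 CPM per kilobase of exons, each above its inducible counterpart in every library.

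The pattern of Nlrc5 over the libraries stood away from those of the other members. The root mean square difference between 2 genes in log2 CPM, each centred on its mean over the 6 libraries, was 0.56 to 0.77 between Nlrc5 and each other member. Between Nlrc5 and the mean of the other 9 it was 0.67. Between each member other than Nlrc5 and the mean of the rest without Nlrc5 it was 0.09 to 0.16. Among the 10917 named protein-coding genes outside the set with a mean of at least 1 CPM, those nearest to Nlrc5 were Akap8 at 0.103, Cntrob at 0.133, Brd8 at 0.134, Prpf40b at 0.143 and Rccd1 at 0.152. Akap8 had 9.69 to 13.5 CPM in the controls and 19.2 to 23.9 CPM in PP-MP libraries. Among those nearest to the mean of the other 9 were Lasp1 at 0.0326, Arl6ip5 at 0.0356, Gnptab at 0.0423 and Npc2 at 0.0469.

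At the Nlrc5 locus on chromosome 8, the long non-coding transcript 9330175E14Rik starts at the 5′ end of Nlrc5 and runs the other way. It shares 78 exonic bases with Nlrc5, 0.918% of the exons of Nlrc5, and was singled out after its values had been seen. Its promoter window (chr8:94435054-94435353, minus strand, GRCm38.p6) is shown because Nlrc5 had no window in the table. It holds CCAAT in 2 places, in capitals, and no ACNGNTGACG. The kappa-B core GGANNNTCC is also in this window, read as GGAACCTCC and not in capitals.
9330175E14Rik: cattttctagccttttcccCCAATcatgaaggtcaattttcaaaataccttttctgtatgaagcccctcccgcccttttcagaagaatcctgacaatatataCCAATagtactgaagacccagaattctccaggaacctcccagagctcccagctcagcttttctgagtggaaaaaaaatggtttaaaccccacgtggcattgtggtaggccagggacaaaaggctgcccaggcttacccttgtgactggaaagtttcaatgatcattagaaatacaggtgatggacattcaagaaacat

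9330175E14Rik had 5, 20 and 24 counts in the control libraries and 259, 253 and 174 counts in the PP-MP libraries, that is 0.0689, 0.332 and 0.230 CPM against 2.57, 2.78 and 1.68 CPM. The groups did not overlap. The fitted difference was 3.48 (SE 0.56), with an edgeR adjusted p of 0.18 by Benjamini-Hochberg, 0.081 to 0.46 over the alternatives other than DESeq2, which gave 9.4e-08. Without knowledge of the strand setting, reads of the transcript and of Nlrc5 at their shared bases cannot be told apart. With every 9330175E14Rik count subtracted from the count of Nlrc5, 8.81 to 11.1 CPM remained in the controls and 17.1 to 19.9 CPM in PP-MP libraries. The ratio of these means was 1.84. Reads of the transcript that were counted for Nlrc5 are not measured by its own row, so the subtraction does not show how many there were.

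The counts of 9330175E14Rik were 0.638% to 2.90% of those of Nlrc5 in the controls and 8.97% to 12.2% in PP-MP libraries. The other neighbours overlapped between diets. Herpud1, an endoplasmic reticulum stress protein gene on the near side of that transcript, differed by -0.08, and Cpne2, next on the far side of Nlrc5, by -0.19. Psme3ip1 differed by -0.14 and Rspry1 by -0.06.

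**Figure D4:**
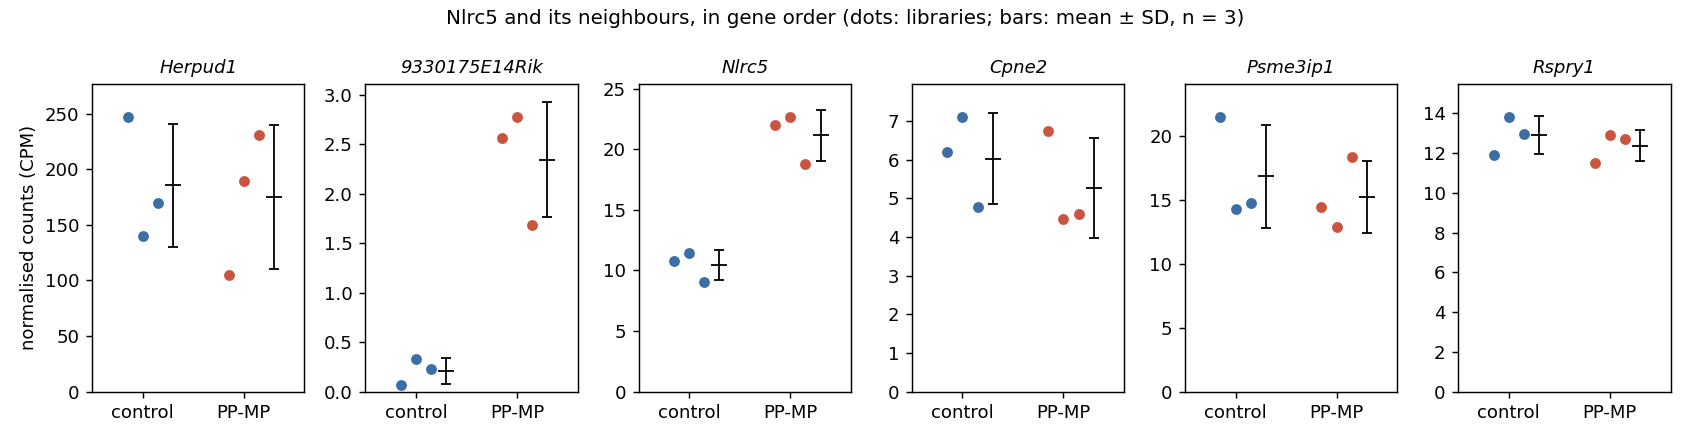
Normalised read counts (CPM, y axis from 0, a scale for each gene) of Nlrc5 and 5 neighbouring genes in gene order, for each of 3 control and 3 PP-MP libraries (dots) with the mean ± SD beside them. The groups are apart for 9330175E14Rik and Nlrc5 and overlap for Herpud1, Cpne2, Psme3ip1 and Rspry1.

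Related genes were read through 12 lists, written with earlier results known and described by counts and medians. Of their 151 tested genes, 0 passed the edgeR test at an adjusted p of 0.05, where 2 of all 18284 genes did. At an unadjusted p under 0.05 it gave 11 of the 151 higher and 12 lower, where 8.05% and 5.81% of all genes were, and DESeq2 called 8 of them, where it called 4.25% of all genes, and limma-voom 0. Whether the libraries of a gene lay apart is given below with TMM scaling only. Genes apart there can overlap with library totals, as B2m and H2-K1 did. The medians below are also with TMM scaling. With library totals those of the other heavy chains, of peptide loading, of the immunoproteasome partners, of the 20S core and of both interferon-gamma lists, all below 0 here, stood at 0.24, 0.22, 0.021, 0.08, 0.16 and 0.23, beside the shift of 0.23 in the median of all genes.

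Of 26 other class I and class I-like heavy chain genes, 23 were tested, 11 with a higher and 12 with a lower fitted value and a median of -0.01. At an unadjusted p under 0.05, 2 were higher and 2 lower. H2-T22, a non-classical heavy chain, had 83.2, 60.1 and 92.9 CPM in the controls and 53.1, 43.9 and 49.1 CPM in PP-MP libraries. H2-Q10, a secreted class I molecule made by liver, had 3036, 2000.3 and 2582 CPM against 1295, 1865 and 1681 CPM. In both genes all PP-MP libraries were below all control libraries under TMM scaling, with fitted differences of -0.69 and -0.65. These heavy chain genes are copies of one another, and their reads may be split between them. H2-K2 was apart in the other direction, at 2.95 ± 0.25 CPM in the controls and 5.27 ± 0.63 CPM in PP-MP libraries (SD, n = 3 each), and was the 1 gene of the list that DESeq2 called. Raet1e, a ligand of the NKG2D receptor, was also higher in every PP-MP library, at 2.91 against 1.54 CPM.

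Of 13 genes of peptide loading and trimming, 6 were higher and 7 lower, with a median of -0.01, and at an unadjusted p under 0.05 0 were higher and 2 lower. Calr, the calreticulin gene of the loading complex, had 397, 417 and 415 CPM in the controls and 497, 459 and 502 CPM in PP-MP libraries, apart by a fitted 0.25. Npepps, a cytosolic peptide-trimming enzyme, stood at 36.6 CPM in the controls and 27.6 CPM in PP-MP libraries, and Sec61b, a subunit of the translocon, at 33.5 and 24.7 CPM, both apart with PP-MP below. Blmh, the bleomycin hydrolase gene, was at -0.38 with overlap. Of the 5 partners of the immunoproteasome, 4 were lower, with a median of -0.21, 2 of them at an unadjusted p under 0.05. Psme1, a subunit of the PA28 activator, had 130, 103 and 132 CPM in the controls and 73.7, 86.4 and 96.2 CPM in PP-MP libraries, below in every library, with a fitted difference of -0.51. Its partner Psme2 overlapped, at -0.21, and the log2 ratio Psme1 to Psme2 was 0.93, 0.73 and 0.97 in the controls and 0.53, 0.62 and 0.59 in PP-MP libraries, lower in all 3. Psme3 was at -0.37, also apart.

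The 3 constitutive catalytic subunits Psmb5, Psmb6 and Psmb7 were at -0.30, -0.18 and -0.30, each with overlapping libraries. Of 11 further subunits of the 20S core, 10 had a lower fitted value, 0 had an unadjusted p under 0.05 in either direction, and the median was -0.14. The 4 of smallest p were Psmb3 at -0.25, Psma5 at -0.18, Psmb2 at -0.20 and Psmb1 at -0.15, all with overlapping libraries.

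Of 11 factors of the SXY module, 6 were higher and 5 lower, 0 with an unadjusted p under 0.05, and the median was 0.08. Rfx5, the RFX subunit that holds the complex on the X box, had 9.86, 10.14 and 9.02 CPM in the controls and 13.4, 10.12 and 10.8 CPM in PP-MP libraries and overlapped by a small margin. Creb1, which binds the X2 box, was at 0.46 and Nfyb, a subunit of the factor on the Y box, at 0.82, both with overlap and a wide spread, control 3 having 3.20 CPM of Nfyb and PP-MP 3 26.0 CPM. Kat2b, a histone acetyltransferase, was at -0.17 with overlap.

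Of 16 tested genes of interferon-gamma signalling, 7 were higher and 9 lower, with a median of -0.08. Irf1, an interferon-induced transcription factor, was below in every library, with 26.6 to 30.9 CPM in the controls and 24.4, 25.6 and 8.52 CPM in PP-MP libraries, where PP-MP 3 stood far under the others. Stat2 was above in every library, with 20.6 to 35.3 CPM against 40.8 to 43.3 CPM, and so was Socs3, an inhibitor of cytokine signalling, with 5.04 to 6.15 against 6.56 to 16.3 CPM. The gene of the cytokine itself, Ifng, had 0 to 7 counts per library and was not tested.

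Of 17 tested targets of interferon-gamma outside class I, 8 were higher and 9 lower, with a median of -0.01. Cxcl9, a chemokine gene, had 8.09, 11.8 and 10.6 CPM in the controls and 4.92, 5.24 and 4.72 CPM in PP-MP libraries, apart and lower by a fitted 1.04, and was the 1 gene of the list that DESeq2 called. Its edgeR adjusted p was 0.18 by Benjamini-Hochberg. Of 22 genes stimulated by interferon in general, 14 were higher and 8 lower, with a median of 0.23. Bst2, which tethers budding virus, stood at 134 CPM in the controls and 77.9 CPM in PP-MP libraries, and Ifi27 at 178 and 105 CPM, both apart with PP-MP below. Mx2, another antiviral gene, was apart the other way, at 2.07 to 2.97 against 3.52 to 5.92 CPM. DESeq2 called these 3 of the list.

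Of 10 genes of MHC class II presentation, 9 were lower and 1 higher, with a median of -0.62. For 5 the PP-MP libraries were all below the control libraries, where this held for 9.79% of all genes tested. H2-Eb1 was at -0.65, H2-DMa at -0.64, H2-Aa at -0.60 and H2-Ab1 at -0.68. Ciita, the NLR family relative of Nlrc5 that activates class II genes, stood at 1.21 to 3.25 CPM in the controls and 0.90 to 1.55 CPM in PP-MP libraries, with overlap, a fitted difference of -0.78. At an unadjusted p under 0.05 0 of the class II genes were higher and 2 lower.

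Of 13 tested NLR genes besides Nlrc5 and Ciita, 12 were higher and 1 lower, with a median of 0.80, and DESeq2 called Nlrp12 and Naip1. Nlrp12 had 31.7, 16.0 and 19.7 CPM in the controls and 77.4, 65.8 and 46.5 CPM in PP-MP libraries, above in every library, with a fitted difference of 1.49. Naip1 and Naip6, of the family that senses bacterial proteins in the cytosol, are close copies whose reads may be split, and stood at 0.26 and 0.28 CPM in the controls and 0.92 and 1.06 CPM in PP-MP libraries, apart, and Naip5 at 0.95 and 2.49 CPM, with overlap. Of 7 tested receptors for class I on T and natural killer cells and their relatives, 6 were higher and 1 lower, with a median of 0.70. Lilrb4a, an inhibitory receptor of myeloid cells, had 0.84, 1.28 and 0.89 CPM in the controls and 7.17, 4.86 and 1.65 CPM in PP-MP libraries, with PP-MP 1 the highest, and DESeq2 called it. Pirb, which binds class I, was highest in the same library, at 9.70 CPM, and overlapped between diets. Klrk1, the NKG2D receptor gene, stood at 0.65 CPM in the controls and 1.07 CPM in PP-MP libraries, apart, and Klrd1 at 0.10 and 0.22 CPM, with overlap.

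**Figure D5:**
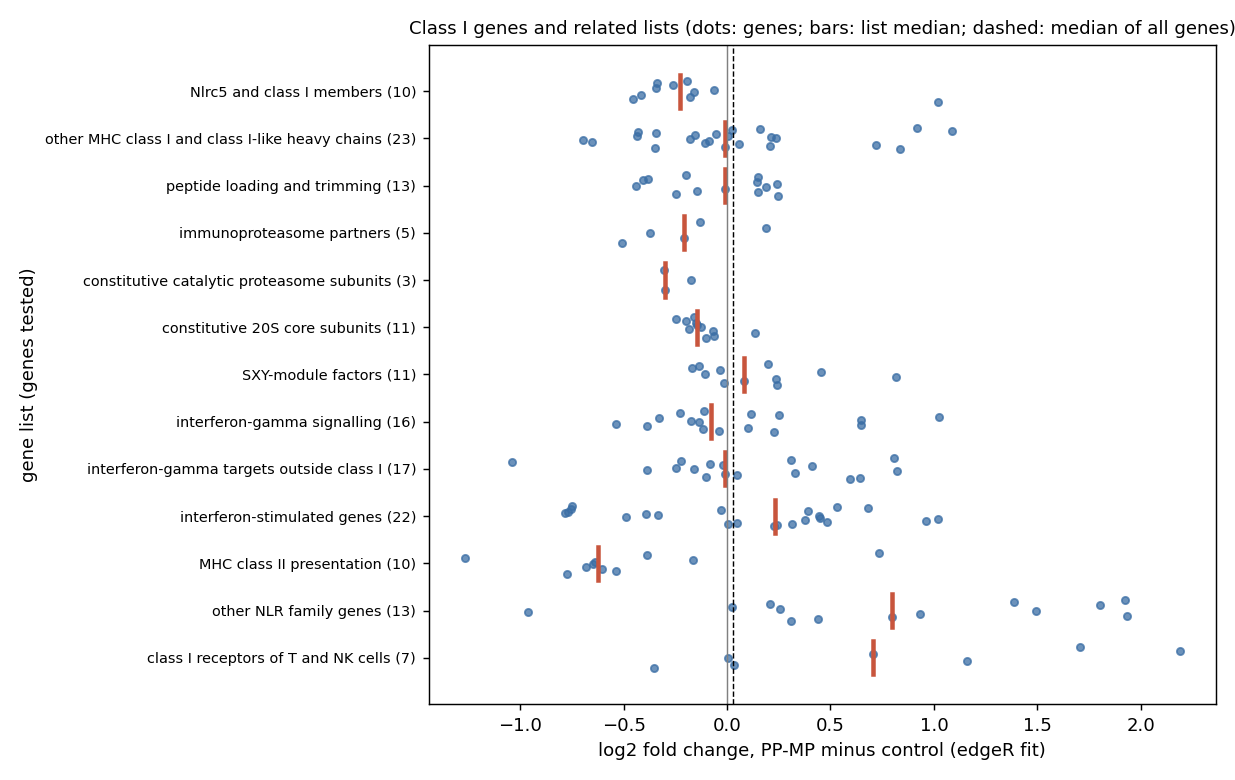
Log2 fold change of PP-MP over control (x axis, edgeR) of each tested gene (dots) in the 10 members and the 12 related lists (y axis, number of genes tested in brackets), with each list's median as a bar and the median of all genes as a dashed line. Nlrc5 stands at 1.02, to the right of the other 9 members, and the class II genes lie furthest left with a median of -0.62.

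Marker genes of other liver cells also differed between libraries. The summed level of 9 Kupffer cell markers was 128 to 170.35 CPM in the controls and 170.27 to 627 CPM in PP-MP libraries, with 9 of 9 fitted values higher. That of 9 markers of monocytes and recruited macrophages was 42.5 to 80.6 against 62.9 to 201 CPM, and that of 8 neutrophil markers 1.31 to 1.86 against 3.15 to 25.4 CPM, higher in every PP-MP library. In each of these lists PP-MP 1 was the highest library and PP-MP 3 the lowest of its group, as for Lilrb4a and Pirb. Nlrc5 stood at 22.0, 22.7 and 18.7 CPM in PP-MP libraries 1, 2 and 3. Like Nlrc5, every other member except H2-K1 was lowest of its group in PP-MP 3, while H2-K1 was lowest in PP-MP 1. H2-D1, Tapbp, Psmb8 and Psmb10 were also highest of their group in PP-MP 1, and the other members in PP-MP 2. The part of the cells of these marker lists in the values of the members was not tested.

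The summed level of 10 T cell markers was 6.97 to 11.01 CPM in the controls and 4.47 to 6.71 CPM in PP-MP libraries, lower in every PP-MP library, with 9 of 10 fitted values lower. Control 2, the library with the largest Rn18s-rs5 share, had the highest T cell level and also the highest levels of H2-Aa and Cxcl9 in its group. Among the members it was the highest control for Nlrc5 and the lowest for all others but Psmb8. In H2-D1, Tapbp, Psmb9 and Psmb10 controls 1 and 3 were above every PP-MP library under TMM scaling, so their overlap came from control 2. This did not hold for Tap1, Tap2 and Psmb8. Of the other marker lists, 8 markers of natural killer cells gave 1.998 to 2.84 against 2.13 to 2.55 CPM and 7 of dendritic cells 1.38 to 3.38 against 1.78 to 4.12 CPM. The 9 markers of B and plasma cells gave 20.8 to 187 against 42.7 to 583 CPM, with 2 fitted values higher and 7 lower. Sinusoidal endothelial markers gave 101 to 127 against 96.1 to 161 CPM over 8 genes, stellate cell markers 140 to 173 against 135 to 148 CPM over 9, and cholangiocyte markers 12.3 to 27.4 against 12.6 to 23.6 CPM over 7. These 6 lists overlapped between diets. None of the listed markers was at 0 in all 6 libraries, and the part of these cells in the class I values was not tested. Of the 83 tested marker genes, edgeR called 0 at an adjusted p of 0.05 and gave 12 higher and 5 lower at an unadjusted p under 0.05, where 8.05% and 5.81% of all genes were, while DESeq2 called 6, where it called 4.25% of all genes, and limma-voom 0.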

How the data were processed

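Liver RNA from 6 libraries, 3 a diet, was sequenced after poly(A) selection with a directional kit, per the labels' protocols. The authors deposited raw read counts per gene, and the submitters' processing notes name bcl2fastq and build GRCm39. No source used here states the aligner, counter, annotation or strand setting. The 6 sample tables were identical to their columns of the series table.

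Counts were filtered with edgeR's filterByExpr, scaled by TMM and tested with its quasi-likelihood test (edgeR 4.0.16, R 4.3.3) on all 18284 genes, with Benjamini-Hochberg adjustment and a threshold of 0.05. DESeq2 1.42.0, limma-voom (limma 3.58.1), other scalings, other filters, a replicate block and fits without libraries were alternatives. Log2 CPM used a prior count of 2. Lengths and overlaps came from GENCODE M21, which matched 91.4% of rows with a count by symbol. The test was checked before use on simulated data in which 200 genes were changed. It recovered 0% of the 1.5-fold, 0% of the 2-fold and 66.7% of the 4-fold changes, with 3 false calls among 47. A change of the size fitted for Nlrc5 would thus seldom pass this test.

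Members and lists were chosen with earlier results of these data known. Of each list the text names at most the 4 tested genes of smallest unadjusted p, plus Psmb5, Psmb6, Psmb7, Psme1, Psme2, Rfx5, Irf1 and Ciita, and the 5 genes nearest in pattern to Nlrc5 and to the mean of the other 9. Some genes that the rule names are not reported here. 9330175E14Rik, its neighbours and Ifng were added after their values were seen. No 2 libraries of a group had counts that agree within sampling noise (chi-square per degree of freedom 154 to 928).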

Additional observations from a re-analysis of the deposited data

How the results depend on the processing

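The count of genes past the edgeR threshold was 2, and it was 1 with library totals, 777 with DESeq2, 1 with limma-voom, and 0 to 92 when 1 library was left out, the 92 being without control 2 and the 0 found on leaving out PP-MP 1, PP-MP 2 or either of controls 1 and 3. Same-numbered libraries did not deviate together (correlations of -0.07, -0.09 and 0.05), and with the replicate number as a block the count was 0, with an edgeR adjusted p of 0.46 for Nlrc5.

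The fitted difference of Nlrc5 was above 0 in all 16 fits. It was 0.95 to 1.11 with 1 library left out, 1.26 with library totals and 0.90 with the trend on gene length removed, an alternative chosen after seeing the data. The members' median was 0.0071 with library totals, -0.38 without control 2 and PP-MP 1 together, and -0.33 to -0.14 with 1 library left out.

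Library totals put the list medians at 0.24 for other heavy chains, 0.22 for peptide loading, 0.021 for immunoproteasome partners, 0.31 for SXY factors and 0.16 for interferon-gamma signalling, beside the shift of 0.23 for all genes. With 1 library left out the peptide loading median ran from -0.10 to 0.17 and that of other NLR genes from 0.41 to 1.11, the lowest being without control 3, and the peptide loading median was -0.11 with the length trend removed. The median of class I receptors was 2.003 among genes with a mean of at least 1 CPM, where fewer genes of the list were left. The causes of the other changes were not tested. With 3 libraries a diet, the median 95% interval of a gene reached 0.73 to either side on the log2 scale before adjustment over all genes, so differences larger than this could also miss the threshold.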
